A study of Mus musculus with 33 samples.

Results

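A small number of T cells and innate lymphoid cells was carried along in 3 single-cell RNA libraries of mouse colon mesenchyme. They were chosen by their transcripts. A barcode counted as a passing cell with 1000 UMIs or more (unique molecular identifiers, each marking 1 captured transcript), 500 genes or more and a mitochondrial share of 20% or less. It counted as a T or innate lymphoid cell (called a lymphoid cell here) with at least 3 UMIs of Cd3e, Cd3d, Trbc2, Il7r, Nkg7 and Gzma together, at least 2 UMIs of the leukocyte genes Ptprc, Cd52, Coro1a and Laptm5 together, and less than 0.4% of its UMIs from the colon fibroblast gene Adamdec1. By this rule 88 of 17652 passing cells were lymphoid cells, and the other 17564 are the cells they are set against.

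Of the 33 samples of the series, the 3 single-cell libraries were used here, and the other 30 were not used here. Their source was untreated adult mice, male and female, and the tissue was colon. The mice were perfused, the outer muscle was removed, the epithelium was released with EDTA and the rest was digested with collagenase 2, per the labels. The GFP-low libraries (2 replicates) held unstained cells of PdgfraH2BeGFP (JAX strain 007669) mice sorted for the level of a nuclear GFP driven from the Pdgfra locus, so no leukocyte stain was used. The whole mesenchyme library (1 library, genotype labelled control) held cells sorted as negative for EpCAM, an epithelial protein, and for CD45, the protein of Ptprc and a surface marker of leukocytes. Neither the gate limits nor the number of mice per library is stated in the labels. Live cells (8000 per library) were loaded on a droplet 3' assay, which counts transcripts near their 3' ends. Values given as 3 in a row are for GFP-low replicate 1, GFP-low replicate 2 and whole mesenchyme, in that order.

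T cells recognise antigen through a receptor of paired variable chains that signals through the CD3 proteins, and they divide into CD4 helper cells and CD8 killer cells. Innate lymphoid cells carry no such receptor. Natural killer cells and group 1 innate lymphoid cells make interferon gamma, group 2 cells make interleukins 5 and 13, and group 3 cells make interleukins 17 and 22. In the lamina propria of the intestine, the tissue layer that also holds the mesenchyme, many lymphocytes are resident and stay without returning to the blood.

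Lymphoid cells numbered 60 of 4834 passing cells in GFP-low replicate 1, 23 of 6025 in GFP-low replicate 2 and 5 of 6793 in whole mesenchyme. These are shares of 1.24% (exact Clopper-Pearson 95% binomial interval 0.948 to 1.59%), 0.382% (0.242 to 0.572%) and 0.0736% (0.0239 to 0.172%). The intervals of the 3 libraries did not overlap, and the GFP-low replicates differed from each other more than counting error allows. The whole mesenchyme library was the lowest, and it is also the library sorted against CD45. With 1 library of that sort no test between the sorts was made, and the intervals cover counting error only. No barcode of a lymphoid cell recurred in another library, although the pairs of libraries shared 11, 6 and 11 barcodes of passing cells.

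At the limits of the rule, 7 of the 88 cells held exactly 3 UMIs of the 6 T and innate lymphoid genes and 4 held 4, while 1 cell outside held 2. At the leukocyte limit, 1 cell inside held exactly 2 UMIs and 1 cell outside held fewer. The limit on Adamdec1 removed more. Between 0.2 and 0.4% of UMIs, 6 cells lay inside; 14 cells at 0.4 to 0.8% and 23 cells above that met every other limit and lay outside, 37 in all.

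The genes that chose the cells are given as a description. Trbc2, a constant part of the T cell receptor beta chain, was read in 81 of the 88 cells and Cd3d in 64, against a median of 10 UMIs of all 6 genes per cell (range 3 to 77). Nkg7, a granule protein of killer cells, was read in 61 cells, Cd3e in 55, Il7r (the interleukin 7 receptor) in 30 and Gzma, a granzyme, in 10. Ptprc reached 575, 674 and 893 UMIs per 1000000 UMIs of the class (CPM) in the lymphoid cells, against 4.52, 1.45 and 1.53 CPM in the other cells. Ptprc helped to choose the cells, so nothing is read from this difference.

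For the label, genes outside the rule are the ones that bear on it: Cd3g was read in 73 of the 88 cells and Trac in 67. With genes of the rule included, which build in part of the count, 81 of the 88 cells held at least 1 UMI of Cd3e, Cd3d, Cd3g or Trac, and 85 held a UMI of Trbc1 or Trbc2. Of the 7 cells with no CD3 or Trac UMI, 6 held transcripts of innate lymphoid or natural killer cells and 1 was a plasma cell by its transcripts. That cell, in GFP-low replicate 1, passed the rule through 3 UMIs of Gzma. It had 14663 UMIs, of which 74.3% came from B and plasma cell genes, with 5684 UMIs of Igkc, 3512 of Igha and 1662 of Jchain, the antibody light chain, heavy chain and joining chain. It goes against the name T or innate lymphoid cell. The labels call all cells mesenchymal, while Cd3g and Trac are T cell genes. Each of the 88 cells also held at least 2 UMIs of leukocyte genes outside the rule. That bar alone does not set a cell apart, since other cells carried this list too, at a lower level.

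**Figure D1:**
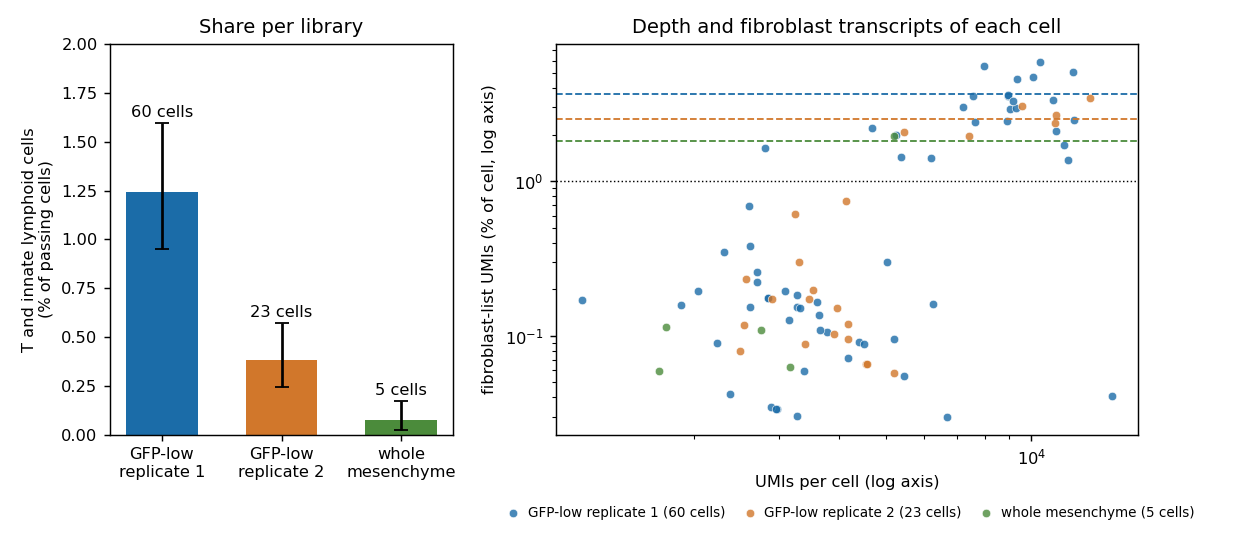
Left, lymphoid cells as a percentage of passing cells in each library (bars) with exact 95% binomial intervals (lines): 1.24% in GFP-low replicate 1, 0.382% in GFP-low replicate 2 and 0.0736% in whole mesenchyme. Right, each of the 88 lymphoid cells by its UMIs and the percentage of them from 10 fibroblast genes, both on log axes, coloured by library; dashed lines are the medians of the other cells of each library and the dotted line is 1%, with 57 cells at or under it and 31 over it.

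The lymphoid cells left by the rule fell into separate sets by their fibroblast transcripts, which touches the values that follow. The 10 fibroblast genes of the marker list supplied at most 0.749% of the UMIs of 57 lymphoid cells (36 in GFP-low replicate 1, 17 in GFP-low replicate 2 and 4 in whole mesenchyme) and at least 1.37% of the UMIs of the other 31 (24, 6 and 1). No lymphoid cell lay between, but the Adamdec1 limit had removed cells from that range. The 37 cells it kept out had fibroblast shares from 0.829% upward, with a lower quartile of 1.36%. The 57 cells had a median of 3269 UMIs and 1464 genes, and the 31 cells a median of 9018 UMIs and 3099 genes. The medians of the fibroblast share in the non-lymphoid cells were 3.68, 2.53 and 1.83%, and barcodes with 1 to 100 UMIs, which hold free RNA, had 3.60, 2.33 and 1.74%. Dcn, the matrix proteoglycan decorin, was read in 85 of the 88 cells, with a median of 4 UMIs in the cells that had it and a maximum of 319. Whether a droplet held a second cell was not tested, and no doublet caller was run. Values of the 57 cells are given beside those of all 88 where they change a statement, except for smaller classes of lymphoid cells.

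The comparison of the 88 cells with all other cells was made for each gene within each library, from UMIs summed over the cells of each class. Since the cells were chosen by transcripts in the same cells, it is a description with no test, and the 11 genes of the rule are left out. A gene was considered where its mean CPM of both classes corresponds to at least 10 UMIs in the lymphoid cells of each GFP-low library, and it was counted where its CPM was at least 4-fold apart in both GFP-low libraries. Of 1841 genes considered, 108 (5.87%) were at least 4-fold higher in lymphoid cells and 5 (0.272%) were at least 4-fold lower. A gene near 0 in the other cells can pass the filter only by being high in lymphoid cells, so for such genes passing the filter and being counted as higher are the same event, and the number counted among those of a list that passed is no support for the list. Of the 108 genes, 93 were also at least 4-fold higher in the 5 lymphoid cells of whole mesenchyme, and 6 had no UMI in them. Over all genes considered, the median log2 ratio of lymphoid cells over other cells was 0.06 (GFP-low replicate 1) and 0.14 (GFP-low replicate 2).

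With the 57 cells at or under 1% fibroblast UMIs in place of all 88, 894 genes were considered, and 96 (10.7%) were at least 4-fold higher and 163 (18.2%) at least 4-fold lower. Of the 96 higher genes 80 were among the 108, and of the 163 lower genes 1 was among the 5. The 10 fibroblast genes that set the 57 cells apart were not left out. All 9 of them that passed this filter were among the 163, which the choice of cells builds in. The count of lower genes therefore rested on which lymphoid cells were taken.

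**Figure D2:**
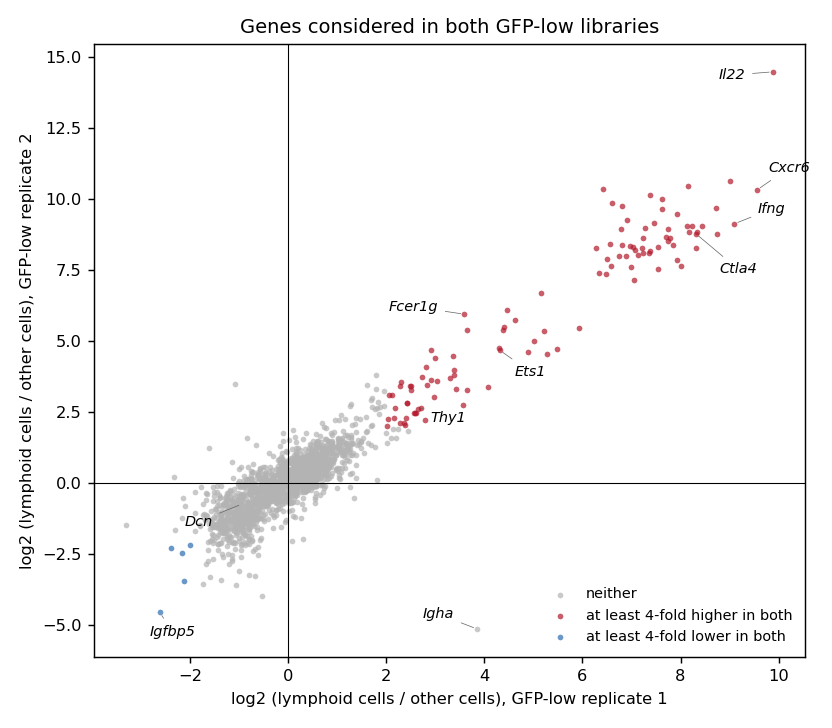
Log2 ratio of summed CPM in lymphoid cells over other cells for each gene considered, in GFP-low replicate 1 (horizontal) and GFP-low replicate 2 (vertical); red, the 108 genes at least 4-fold higher in both, blue, the 5 at least 4-fold lower in both, and grey, the rest. Of 1841 genes 1839 are drawn and 2 with no UMI on a side are not; most lie near 0 in both libraries, and Igha is high in replicate 1 and low in replicate 2.

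The receptor and CD3 genes outside the rule were at far higher levels in lymphoid cells than in other cells, which include cells that only the Adamdec1 limit kept out. Cd3g, the CD3 gamma chain, had 601, 458 and 1029.9 CPM in lymphoid cells, against 1.39, 1.06 and 0.702 CPM in other cells. It was read in 73 of the 88 cells, with 1 to 16 UMIs in a cell that had it, and every library was higher in lymphoid cells. The log2 ratio averaged 8.75 over the GFP-low libraries. Trac, the constant part of the receptor alpha chain, had 461, 258 and 137 CPM in lymphoid cells, against 1.43, 0.565 and 0.766 CPM in other cells (mean log2 ratio 8.58 ± 0.35, SD, n = 2 GFP-low libraries). Trbc1, the other constant part of the beta chain and nearly identical in sequence to Trbc2, had 411, 250 and 137 CPM in lymphoid cells, against 1.19, 0.467 and 0.415 CPM in other cells. Of this list of 8 genes these 3 passed the filter. Trdc, the constant part of the receptor delta chain, had no UMI in the 88 cells, which at their 342816, 120178 and 14564 UMIs allows up to 8.75, 25.0 and 206 CPM. Tcrg-C1, a constant part of the gamma chain that shares sequence with Tcrg-C2 so that its reads could be split, had 18 UMIs in 14 cells.

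Signalling genes downstream of the receptor followed. Lat, the adaptor on which the receptor signal is assembled, had 621, 141 and 412 CPM in lymphoid cells, against 2.21, 0.59 and 0.255 CPM in other cells, but it lay under the filter and was not counted. Skap1, another adaptor, had 295, 250 and 412 CPM in lymphoid cells, against 1.67, 0.442 and 0.415 CPM in other cells. Cd28, the costimulatory receptor, had 359, 266 and 549 CPM in lymphoid cells, against 9.28, 11.5 and 1.92 CPM in other cells, a smaller ratio because the other cells were not near 0 (mean log2 ratio 4.90 ± 0.52, SD, n = 2). Thy1 had 350, 241 and 343 CPM in lymphoid cells, against 53.6, 38.6 and 16.7 CPM in other cells. Thy1 is a surface protein of T cells that fibroblasts also make. Of this list of 15 genes 6 passed the filter, and all 15 had a UMI in lymphoid cells. After every cell was thinned to 1000 UMIs, Cd28 was read in 37.5% of lymphoid cells (exact 95% interval 27.4 to 48.5%), against 0.501% of other cells.

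Helper and killer cells were separated by their co-receptors. Cd4, the co-receptor of helper cells, was read in 38 cells and had 172, 208 and 68.7 CPM in lymphoid cells, against 0.612, 0.393 and 0.0319 CPM in other cells. Cd8a, the first chain of the killer cell co-receptor, was read in 12 cells with 108, 16.6 and 412 CPM in lymphoid cells, against 0.17, 0 and 0.0638 CPM in other cells. Cell by cell, 36 held Cd4 alone, 11 held Cd8a or Cd8b1 alone, 2 held both and 39 held neither. Of the 39, 32 held a CD3 or Trac UMI, and 18 had over 1% fibroblast UMIs. At these low counts per cell (a median of 2 UMIs of Cd4 in the cells that had it), a cell with neither is not shown to lack both.

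Costimulatory genes of activated and regulatory T cells were high while the regulatory factor itself was near absent. Ctla4, an inhibitory receptor that binds the same ligands as Cd28, had 595, 366 and 343 CPM in lymphoid cells, against 1.87, 0.836 and 0.575 CPM in other cells. Icos, an inducible costimulator, had 376, 649 and 481 CPM in lymphoid cells, against 2.86, 2.04 and 1.47 CPM in other cells. Tnfrsf18 and Tnfrsf4, the receptors GITR and OX40, had 105 and 146 CPM in the lymphoid cells of GFP-low replicate 1 and 308 and 191 CPM in those of GFP-low replicate 2, against at most 0.68 CPM in other cells of either. Foxp3, the transcription factor that defines regulatory T cells, had 1 UMI in the 88 cells, and Il10, a cytokine they release, had none. Of this list of 10 genes 5 passed the filter; Ctla4, Icos, Tnfrsf18 and Tnfrsf4 are genes that activated T cells and innate lymphoid cells also express.

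Genes of tissue residence differed widely in level among themselves. Rgs1, a regulator of chemokine receptor signals, had 919, 1239.8 and 755 CPM in lymphoid cells, against 3.78, 1.75 and 4.21 CPM in other cells, with up to 45 UMIs in a cell. Cxcr6, a chemokine receptor of resident lymphocytes, had 592, 691 and 549 CPM in lymphoid cells, against 0.782, 0.541 and 0.479 CPM in other cells (mean log2 ratio 9.94 ± 0.53, SD, n = 2). Cd69, which keeps lymphocytes from leaving tissue, had 385, 291 and 412 CPM in lymphoid cells, against 3.44, 0.885 and 1.24 CPM in other cells. Itgb7, the beta chain of gut-homing integrins, was read in 50 cells, with 236, 150 and 206 CPM in lymphoid cells, against 1.8, 0.614 and 0.83 CPM in other cells, and lay under the filter. Of this list of 14 genes 4 passed the filter. Others were near absent: Itgae, the integrin chain of lymphocytes within the epithelium, had 11 UMIs in 7 of the 88 cells, Ccr9, a gut-homing chemokine receptor, had 1 UMI and Gpr15, a colon-homing receptor, had none. The list as a whole summed to 2779.9, 3195 and 2335 CPM in lymphoid cells, against 21.7, 11.9 and 27.0 CPM in other cells.

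Genes of naive and recirculating T cells were uneven too, and 62 of the 88 cells held at least 2 UMIs of their list. By library these were 47 of 60, 13 of 23 and 2 of 5 lymphoid cells. Of the other cells 3563 of 4774, 3647 of 6002 and 3799 of 6788 held as many, so this bar does not set lymphoid cells apart. Lef1 and Tcf7, transcription factors of naive T cells, had 5 and 20 UMIs in the 88 cells. Klf2, a factor that keeps circulating T cells in motion and that is also active in stromal cells, had 831, 433 and 481 CPM in lymphoid cells, against 1361, 900 and 852 CPM in other cells. In the 57 cells with few fibroblast UMIs it was lower still, at 367 and 129 CPM in the GFP-low libraries. Satb1, a chromatin organiser of T cells, had 143, 233 and 549 CPM in lymphoid cells, against 14.0, 10.5 and 23.4 CPM in other cells.

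**Figure D3:**
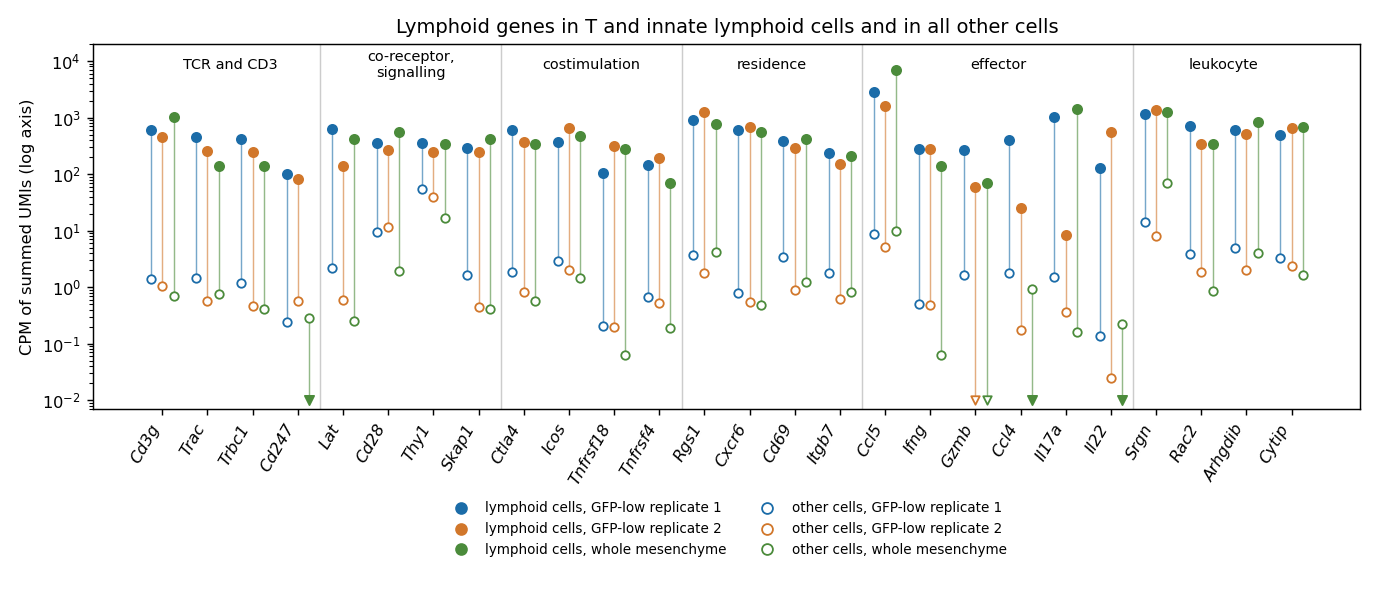
CPM of summed UMIs (log axis) for 26 lymphoid genes grouped by role, with filled circles for lymphoid cells and open circles for other cells of the same library, joined by a line; triangles at the bottom stand for 0 UMIs. Lymphoid cells of GFP-low replicate 1 lie above the other cells for every gene drawn, and the gap in that library is smallest for Thy1.

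Killer and effector genes were uneven from cell to cell. Ccl5, a chemokine stored by killer and memory T cells, had 2774, 1573 and 6798 CPM in lymphoid cells, against 8.67, 5.11 and 9.89 CPM in other cells. It came from 32 cells, with 1 to 200 UMIs in a cell and a median of 17.5, and 4 of the 5 lymphoid cells of whole mesenchyme were among them. Ifng, interferon gamma, had 280, 275 and 137 CPM in lymphoid cells, against 0.51, 0.492 and 0.0638 CPM in other cells, and was read in 29 cells. Gzmb, a granzyme, was read in 19 cells, with 265, 58.2 and 68.7 CPM in lymphoid cells, against 1.67, 0 and 0 CPM in other cells. Fcer1g, a signalling chain of natural killer and myeloid cells, had 84.6, 183 and 0 CPM in lymphoid cells, against 7.01, 2.97 and 3.89 CPM in other cells. Of the cytotoxic list of 16 genes 4 passed the filter, and Gzmb lay under it. Ccl4, a chemokine of activated killer cells, had 397 CPM in the lymphoid cells of GFP-low replicate 1, but 93 of its 136 UMIs there lay in 1 cell.

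Killer and effector genes divided between the cells with Cd8 and those with Cd4, and not all in 1 direction. In GFP-low replicate 1, the library with the most lymphoid cells, 10 cells held Cd8a or Cd8b1 and 26 held Cd4 alone. Ccl5 was at 8808 CPM in the Cd8 cells (exact Poisson 95% interval 8115 to 9545) and at 143 CPM in the cells with Cd4 alone (84.7 to 226). Cd7, a surface protein of T and natural killer cells, was at 473 CPM in the Cd8 cells (323 to 668) and at 15.9 CPM in the Cd4 cells (1.93 to 57.4), and Gzmb at 591 CPM in the Cd8 cells and 31.8 CPM in the Cd4 cells. In the other direction, Ifng was at 103 CPM in the Cd8 cells (41.6 to 213) and at 405 CPM in the Cd4 cells (301.5 to 532), and Cxcr6 was at 148 CPM in the Cd8 cells (70.9 to 272) and at 1127 CPM in the Cd4 cells (949.7 to 1329). Maf, a transcription factor of helper cells, was at 59.1 CPM in the Cd8 cells and 730 CPM in the Cd4 cells. Icos was at 103 CPM in the Cd8 cells and 579.6 CPM in the Cd4 cells, and Ctla4 at 281 CPM in the Cd8 cells and 1016 CPM in the Cd4 cells. None of these intervals of the Cd8 and the Cd4 cells overlapped, but they cover counting error within 1 library only. Ifng came from 3 of the 10 Cd8 cells and 11 of the 26 Cd4 cells. Over the 3 libraries, 4 of 11 cells with Cd8 alone and 8 of 36 with Cd4 alone had over 1% fibroblast UMIs. The Cd8 cells compared also include 2 with both Cd4 and Cd8, 1 of them over 1%. The fibroblast genes Dcn, Col3a1, Col1a2 and Dpt were at 10272, 5276, 2350 and 1301 CPM in the Cd8 cells compared. In the Cd4 cells compared they were at 8146, 2763, 1612 and 1532 CPM. The comparison was not repeated without cells over 1% fibroblast UMIs, so their part in these values was not tested. The genes contrasted between Cd8 and Cd4 cells were set apart after their values were seen.

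Interleukin 17 transcripts came mainly from cells with Cd4 in 1 library. Il17a was read in 14 of 60 lymphoid cells of GFP-low replicate 1, 1 of 23 in the other GFP-low replicate and 1 of 5 in whole mesenchyme. That is 353, 1 and 21 UMIs, or 1029.7, 8.32 and 1442 CPM in lymphoid cells, against 1.53, 0.369 and 0.16 CPM in other cells. Within GFP-low replicate 1 a cell with Il17a held 1 to 148 UMIs (median 6), and 41.9% of the UMIs lay in the highest cell. All 16 Il17a cells held a CD3 or Trac UMI, 14 held Cd4, none held Cd8a or Cd8b1, none held Ccl5, 7 held Ifng and 5 held Il17f, a related cytokine. The cells with Il17a in GFP-low replicate 1 had Rgs1 at 2171 CPM (1847 to 2536) and Ctla4 at 1297 CPM (1049 to 1586). All cells with Cd4 alone in that library, which include 12 of these 14, had Rgs1 at 1564 CPM (1353 to 1799). Their Ctla4 was at 1016 CPM (848 to 1208), an interval that overlaps that of the Il17a cells. Between the GFP-low replicates, differences between mice, dissections and sorts cannot be told apart.

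**Figure D4:**
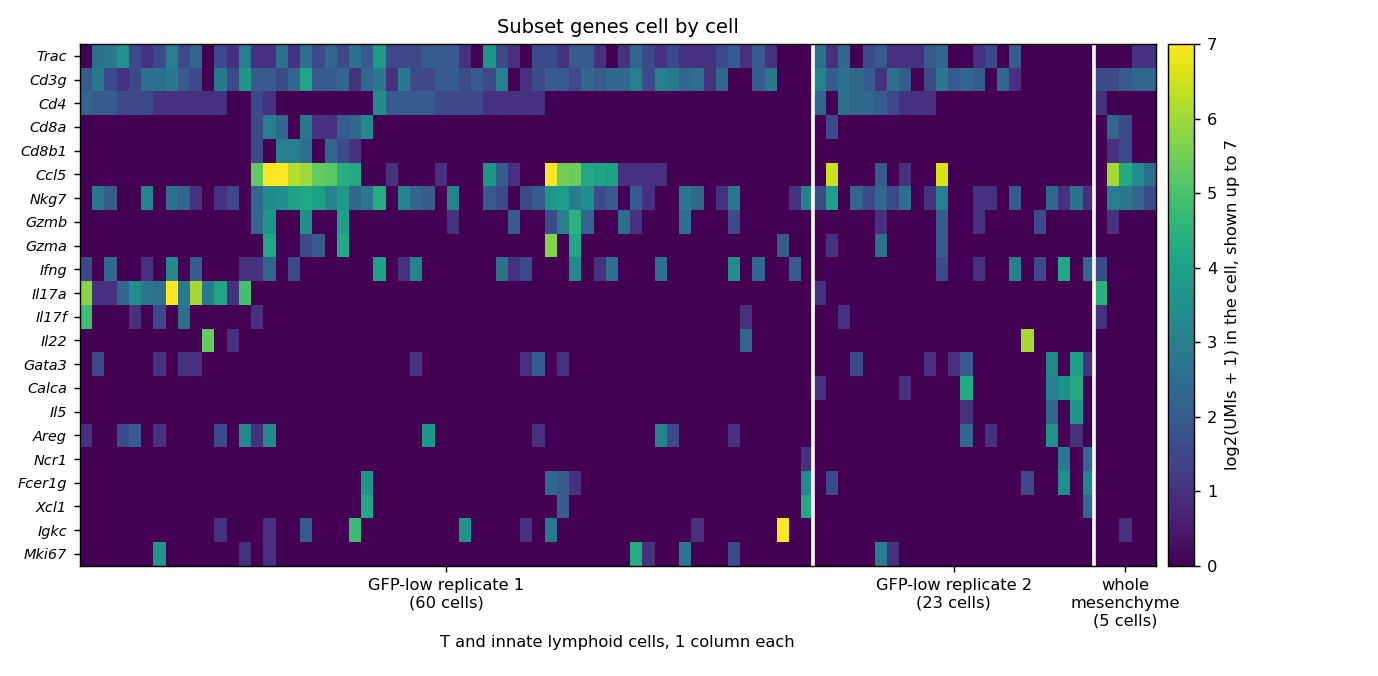
UMIs of 22 subset genes (rows) in each of the 88 lymphoid cells (columns, 60, 23 and 5 in the 3 libraries), as log2(UMIs + 1) shown up to 7. Within a library the cells run from those with Il17a, to those with Cd8, to those with Cd4, to those with CD3 or Trac only; Il17a and Ccl5 fall in different cells, and Calca in GFP-low replicate 2 only.

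The 6 cells without CD3 or Trac other than the plasma cell had the transcripts of different innate groups. In GFP-low replicate 1 a cell of 3600 UMIs held 18 UMIs of Xcl1, a chemokine of natural killer cells, 9 of Fcer1g, 8 of Nkg7 and 1 of Ncr1, an activating receptor of natural killer and innate lymphoid cells. In GFP-low replicate 2 a cell of 2539 UMIs held 4 UMIs of Ncr1, 8 of Fcer1g and 4 of Xcl1, and a cell of 4560 UMIs held 6 of Ncr1, 10 of Fcer1g and 11 of Calca. These 3 cells share markers of natural killer and group 1 or group 3 innate lymphoid cells.

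Of the 6 cells, 2 in GFP-low replicate 2 showed a group 2 pattern. The first, of 4164 UMIs, held 14 UMIs of Gata3, the group 2 transcription factor, 12 of Il5, 4 of Il13, 18 of Calca and 3 of Il1rl1, the interleukin 33 receptor. The other, of 5187 UMIs, held 9 of Gata3, 4 of Il5, 1 of Il13, 7 of Calca, 2 of Il1rl1 and 11 of Areg, a growth factor. Calca, the peptide CGRP, had no UMI in the 60 lymphoid cells of GFP-low replicate 1, and 56 UMIs in 6 cells of GFP-low replicate 2. Among these was a cell of 11217 UMIs with 18 UMIs of Calca, 3 of Gata3, 1 of Il5 and 4 of Areg. It also held 4 UMIs of Cd3g and none of Trac, and 2.67% of its UMIs came from fibroblast genes. The last of the 6 cells without CD3 or Trac, leaving out the plasma cell, had 11209 UMIs and lay in GFP-low replicate 2. Of its UMIs 2.38% came from fibroblast genes. This cell held 67 UMIs of Il22, 3 of Il7r, 3 of Kit and 16 of Rora. It held 60.4% of all Il22 UMIs of the 88 cells. Of the other 3 cells with Il22, all in GFP-low replicate 1, 1 cell held 39 UMIs. Il22 therefore passed the 4-fold rule in both GFP-low libraries through 4 cells, 1 of them in GFP-low replicate 2. Although they lacked CD3 and Trac, 5 of the 7 cells held a UMI of the Tcrg-C genes. Both group 2 cells of the 7 held Trbc2, with 4 and 6 UMIs. Trbc2 is among the genes that chose them.

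The innate lists showed how far their names carry. None of the 11 group 2 genes passed the filter. Of the 11 group 3 genes 3 passed and Il22 alone was at least 4-fold higher. The other 2, Tmem176a and Tmem176b, are membrane proteins that the mesenchyme also makes. Tmem176b had 887, 699 and 275 CPM in lymphoid cells, against 2166, 1007 and 1927 CPM in other cells. It was read in 65 of the 88 cells and Tmem176a in 63, so the 67 cells with at least 2 UMIs of the group 3 list are no count of group 3 cells.

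Among the transcription factors of lymphocytes, Ets1 had 639, 982 and 687 CPM in lymphoid cells, against 32.0, 38.5 and 82.4 CPM in other cells (mean log2 ratio 4.49 ± 0.25, SD, n = 2). Id2, which innate lymphoid cells need, Rora and Maf did not reach 4-fold in both libraries. Id2 had 473, 890 and 206 CPM in lymphoid cells, against 122, 93.4 and 151 CPM in other cells. Rora had 540, 949 and 549 CPM in lymphoid cells, against 265, 380 and 273 CPM in other cells. Of 13 genes 7 passed the filter and 3 (Ets1, Ikzf3 and Runx3) were at least 4-fold higher, and with the 57 cells of few fibroblast UMIs 5 of 6 were. In the 57 cells Maf reached 644 and 1272 CPM in the GFP-low libraries and Id2 704 and 1208 CPM.

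Of the cytokines, Ltb (lymphotoxin beta) had 219, 200 and 1442 CPM in lymphoid cells, against 1.73, 0.614 and 0.638 CPM in other cells, and was highest in the 5 cells of whole mesenchyme. Tnfsf8, the ligand of CD30, had 187, 283 and 618 CPM in lymphoid cells, against 0.442, 0.344 and 0.511 CPM in other cells. Tgfb1, which many cells make, was closer, at 216, 166 and 137 CPM in lymphoid cells, against 40.8, 34.0 and 61.8 CPM in other cells. Of this list of 12 genes these 3 passed the filter, and Tgfb1 was under 4-fold in whole mesenchyme (log2 ratio 1.15).

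Cytokine receptors were divided. Il2rb and Il2rg, which receive interleukins 2 and 15, had 123 and 198 CPM in the lymphoid cells of GFP-low replicate 1 and 341 and 241 CPM in those of GFP-low replicate 2, against at most 1.8 CPM in other cells of either. Ifngr1, the interferon gamma receptor, was read in 83 of the 88 cells, with 808, 1148 and 1991 CPM in lymphoid cells, against 252, 152 and 201 CPM in other cells. Tgfbr2 was lower, at 204, 175 and 206 CPM in lymphoid cells, against 347, 314 and 438 CPM in other cells. Of 12 genes 5 passed the filter, and Il2rb and Il2rg were the ones at least 4-fold higher.

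Both genes of the list of 10 activation and inhibitory receptors that passed the filter stayed under 4-fold. Genes of the list under the filter were not counted. Among them were Cd7 and Ctsw, with 82 and 69 UMIs in the 81 cells with CD3 or Trac. Nr4a1, induced by receptor signals and by cell dissociation, had 706, 657 and 961 CPM in lymphoid cells, against 679, 1069 and 1191 CPM in other cells. Cd44, an adhesion receptor of memory T cells, had 228, 175 and 137 CPM in lymphoid cells, against 87.7, 113 and 82.2 CPM in other cells.

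Leukocyte genes outside the rule varied by gene, from few of the 88 cells to nearly all of them. Srgn, the granule proteoglycan serglycin, was read in 85 of them and had 1152, 1381 and 1236 CPM in lymphoid cells, against 14.3, 8.14 and 70.8 CPM in other cells. Rac2, a GTPase of blood cells, had 712, 341 and 343 CPM in lymphoid cells, against 3.81, 1.82 and 0.862 CPM in other cells. Of this list of 16 genes 9 passed the filter. Even the 31 cells with many fibroblast UMIs carried them: the list summed to 2982, 1979.8 and 2305 CPM in these cells and to 9111, 7279.6 and 6411 CPM in the 57 cells, against 343, 307 and 279 CPM in non-lymphoid cells.

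The 15 genes with the largest ratios outside the lists had various roles. Sh2d2a, a T cell adaptor, had 216, 208 and 206 CPM in lymphoid cells, against 0.714, 0.393 and 0.511 CPM in other cells. Hcst, the adaptor DAP10 of killer cell receptors, had 187, 266 and 343 CPM in lymphoid cells, against 0.646, 0.59 and 0.351 CPM in other cells. Ms4a4b, a membrane protein of T cells, had 499, 258 and 206 CPM in lymphoid cells, against 2.04, 1.11 and 0.0638 CPM in other cells. Stat4, which carries the interleukin 12 signal, had 117, 325 and 343 CPM in lymphoid cells, against 0.51, 0.983 and 0.606 CPM in other cells. Ptpn22, a phosphatase that restrains the T cell receptor, was read in 62 cells, the most of the 15.

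Gimap3 and Gimap4, GTPases that sustain lymphocyte survival, had 163 and 263 CPM in the lymphoid cells of GFP-low replicate 1, against 0.782 and 1.6 CPM in the other cells. The rest of the 15 were Traf1, Samsn1, Sla, Cyth4, Dock2, Bcl2a1d, which shares sequence with Bcl2a1b so that its reads are uncertain, Ctla2a and the unnamed transcript Gm26740. Samsn1, an adaptor of lymphocytes, differed between the replicates, at 120 CPM in the lymphoid cells of GFP-low replicate 1 and 616 CPM in those of GFP-low replicate 2, against 0.714 and 0.541 CPM in other cells. Ctla2a had a smaller ratio in whole mesenchyme. It had 140, 325 and 206 CPM in lymphoid cells, against 0.544, 1.65 and 69.3 CPM in other cells, so that in whole mesenchyme the ratio was under 4-fold (log2 ratio 1.57).

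Igfbp5, Igfbp3, Tcf21, Adamts5 and Gm13889 were the 5 genes at least 4-fold lower. Igfbp5 had 111, 16.6 and 0 CPM in lymphoid cells, against 678, 389 and 764 CPM in other cells, and Igfbp3 had 96.3, 41.6 and 0 CPM, against 434, 227 and 885 CPM; both bind insulin-like growth factors. Tcf21, a transcription factor of fibroblasts, had 198, 49.9 and 68.7 CPM in lymphoid cells, against 798, 228 and 384 CPM in other cells. Adamts5 is a matrix protease and Gm13889 an unnamed transcript. Tcf21 was lower by a mean log2 ratio of -2.10 ± 0.13 (SD, n = 2 GFP-low libraries). Pdgfra, the receptor whose locus drives the GFP of the sort, was read in 18 lymphoid cells, 16 of them with over 1% fibroblast UMIs, and had 61.3, 33.3 and 68.7 CPM in lymphoid cells, against 165, 148 and 462 CPM in other cells. Only 2 of the 57 cells with few fibroblast UMIs held a Pdgfra UMI, although 53 of these cells came from the GFP-low sorts. The GFP transcript has no row in the matrices, so GFP was not counted. Cd81, a tetraspanin of mesenchyme and other cells, was read in 24 of the 31 cells over 1% fibroblast UMIs and in 5 of the 57. The counts of cells for Pdgfra and Cd81 were not thinned. The 31 cells were deeper, at a median of 9018 UMIs against 3269 in the 57.

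**Figure D5:**
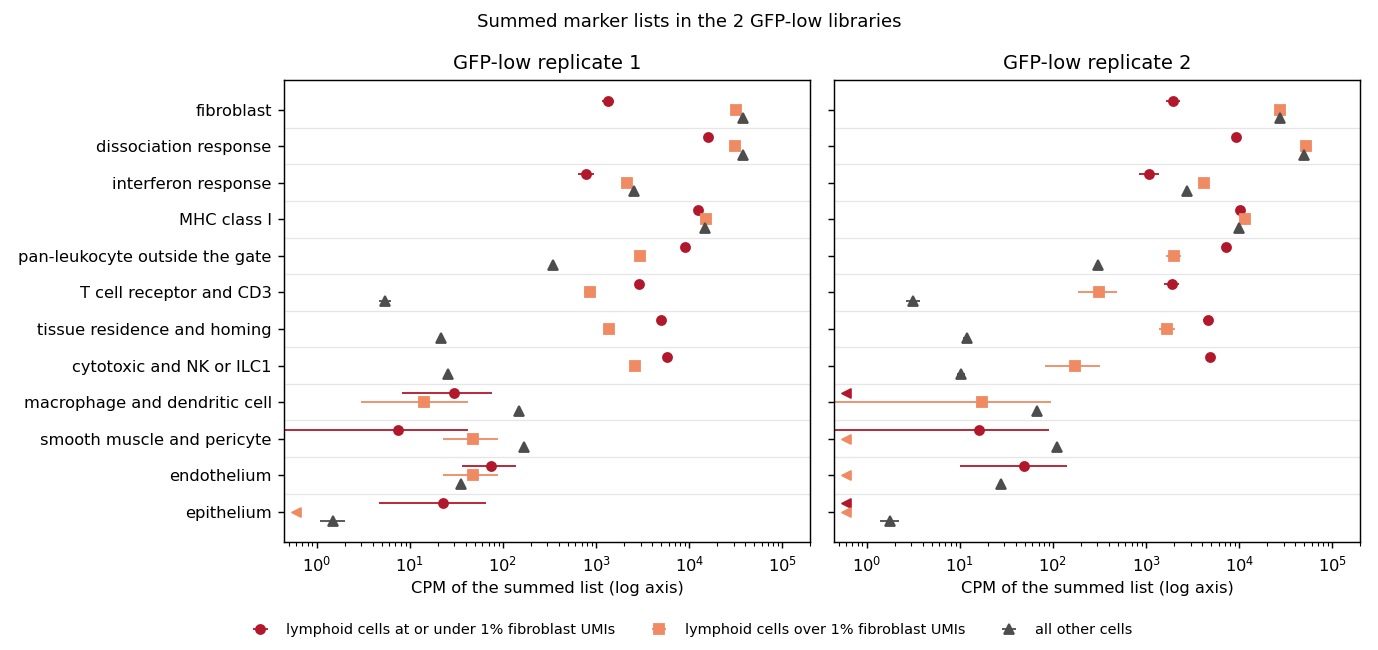
Summed CPM (log axis) of 12 marker lists in the GFP-low libraries, for lymphoid cells at or under 1% fibroblast UMIs, lymphoid cells over 1% and all other cells; lines are exact 95% Poisson intervals of counting error and triangles at the left edge are 0 UMIs. The fibroblast list splits the lymphoid cells, so its low level in the first class is built in. The dissociation list is low in the first class, and the leukocyte, receptor and residence lists are high in both lymphoid classes.

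Genes induced by tissue dissociation moved with the fibroblast transcripts. The list of 16 genes (Fos, Jun and others) summed to 15842, 9164 and 13463 CPM in the 57 lymphoid cells at or under 1% fibroblast UMIs and to 31136, 52387 and 59174 CPM in the 31 lymphoid cells over 1%, against 37403, 49027 and 48477 CPM in non-lymphoid cells. In GFP-low replicate 1 Fos had 756 CPM in the 36 cells with few fibroblast UMIs, against 6941 CPM in other cells, and Jun had 352, against 4957 CPM. Junb and Jund had smaller gaps there, with Junb at 4544 CPM in the same 36 cells, against 5019 CPM in other cells, and Jund at 3114, against 3184 CPM. In GFP-low replicate 2 they were lower as well, with Junb at 2078 CPM in the 17 cells with few fibroblast UMIs, against 6602 CPM in other cells, and Jund at 1240.1, against 2416 CPM. None of the 16 genes was at least 4-fold lower over all 88 cells, and 7 of 16 were with the 57 cells. Over all genes considered the shares at least 4-fold lower also rose, from 0.272% to 18.2%. The interferon response list behaved alike, with 779, 1079 and 107 CPM in the 57 cells and 2151, 4201 and 768 CPM in the 31 cells, against 2545, 2748 and 2056 CPM in non-lymphoid cells. The part of the fibroblast transcripts in these differences was not tested.

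Class I antigen presentation genes were at similar levels in both classes of cells. The class I list, whose H2 genes share sequence so that the level of a single H2 gene is uncertain, summed to 14209, 10784 and 11604 CPM in lymphoid cells, against 14725, 9959 and 9985 CPM in other cells. Its light chain B2m was read in all 88 cells, with 3182, 2721 and 2541 CPM in lymphoid cells, against 3415, 2904 and 3195 CPM in other cells. The class II list, which marks antigen-presenting cells, summed to 105, 116 and 0 CPM in lymphoid cells, against 232, 72.3 and 267 CPM in other cells.

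Markers of other cell types were few or absent apart from fibroblasts and the plasma cell. Endothelial genes, though low, were not below the other cells in GFP-low replicate 1. The 12 macrophage and dendritic cell genes had 9 UMIs in all over the 88 cells, and 8 of the genes, among them C1qa, Csf1r and Adgre1, had none. Mast cell and granulocyte genes had 0 UMIs in the 88 cells, epithelial genes 3 and glial genes 2. Endothelial genes summed to 58.3, 25.0 and 68.7 CPM in lymphoid cells, against 35.5, 27.8 and 794 CPM in other cells, and smooth muscle and pericyte genes to 32.1, 8.32 and 68.7 CPM in lymphoid cells, against 170, 111 and 1061 CPM in other cells. Of 5737 Igkc UMIs 99.1% lay in the plasma cell, and 9 other cells held the rest.

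Dividing cells were present. Mki67 and Top2a, both made by cycling cells, had 123 and 143 CPM in the lymphoid cells of GFP-low replicate 1, against 1.9 and 1.09 CPM in the other cells, and at least 1 UMI of either was read in 17 of the 88 cells (14, 2 and 1). Mki67 was read in 7 of the 60 lymphoid cells of GFP-low replicate 1, and 45.2% of its UMIs there lay in 1 cell. The cell cycle list of 12 genes summed to 709, 333 and 137 CPM in lymphoid cells, against 57.8, 61.3 and 84.7 CPM in other cells. None of the 12 passed the filter in both GFP-low libraries, so no gene of it was counted.

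The 37 cells kept out by their Adamdec1 level had a median of 9156 UMIs and 1.80% fibroblast UMIs, and the residence list summed to 944, 1323 and 1183 CPM in them. The 31 lymphoid cells over 1% fibroblast UMIs had 1391, 1687 and 576 CPM of that list, against 21.7, 11.9 and 27.0 CPM in the non-lymphoid cells, among which the 37 are counted. Another 60 passing cells met the leukocyte and Adamdec1 limits with under 3 UMIs of the 6 T and innate lymphoid genes, 24, 25 and 11 in the 3 libraries. With every such leukocyte cell left out of the other cells, the same 108 genes were higher and the same 5 lower.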

How the data were processed

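The 3 single-cell libraries were analysed from matrices of UMI counts as deposited by the authors, with 31053 genes and 6794880 barcodes each and no cell calling. Cell Ranger 3.0.2 and the mm10 build are named in the submitters' processing notes, and the counts were checked to be whole numbers. Each library held 39190629, 52313765 and 41863444 UMIs (GFP-low replicate 1, GFP-low replicate 2, whole mesenchyme), and the non-lymphoid passing cells had medians of 6462.5, 7033 and 4431.5 UMIs. Further files of the series were not used.

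The cells, the 27 gene lists (288 genes) and the rules were chosen with earlier results of these data known. Counts were summed per library and class and divided by the class total (CPM, per 1000000 UMIs). A gene was considered at a mean CPM of both classes equal to 10 UMIs in the lymphoid cells of each GFP-low library, and counted at 4-fold in both. No p-value was computed: the cells were chosen by transcripts in the same cells and 1 group has 1 library. Intervals are exact 95% Poisson or Clopper-Pearson intervals and the limit for 0 UMIs is 3 counts, and both cover counting error only. For shares, cells were thinned to 1000 UMIs (seed 1). No doublet caller was run. Nothing in the labels says that the replicates are separate animals. Named genes were those of the rule, up to 4 per list with the most lymphoid UMIs, list genes with 0 UMIs, the 15 highest and 5 lowest outside the lists at 50 CPM or more, Pdgfra and Cd81; Cd4, Cd8a, Foxp3, Il17f, Tcrg-C1, Itgae, Ccr9, Ikzf3, Runx3 and the genes of cells without CD3 were added after their values were seen. The counting step was tested on simulated data. Alternatives were other scaling (TMM in edgeR 4.0.16, R 4.3.3), filters, folds, libraries and cell limits. The sums were made in Python 3.11.15 (pandas 2.3.3, numpy 2.4.6), the intervals in scipy 1.17.1 and the plots in matplotlib 3.10.9.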

Additional observations from a re-analysis of the deposited data

How the results depend on the processing

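No paired analysis was possible between the sorts because the whole mesenchyme library carries no replicate number. Lymphoid and other cells were compared within each library, without a test. Of the 108 higher and 5 lower genes, TMM scaling gave 101 and 5, although it moved the log2 ratios of lymphoid over other cells by -0.07, -0.27 and -1.17 in GFP-low replicate 1, GFP-low replicate 2 and whole mesenchyme. The counts followed the filter (190 and 13 at 5 UMIs, 36 and 1 at 20 UMIs) and the fold (204 and 171 at 2-fold, 77 and 0 at 8-fold). Leaving out a GFP-low replicate gave 143 to 291 higher and 56 to 58 lower genes (143 and 58 without replicate 1, 291 and 56 without replicate 2), and pooling them, chosen after seeing the data, 359 and 57; fewer conditions then have to be met. Thinning every cell to 1000 UMIs left 315 genes considered and 18 higher, 13 of them among the 108. Without cells over 1% fibroblast UMIs the lower genes were 163 in place of 5. Of the 163, 9 were fibroblast genes by which those cells were left out. With at least 5 T and innate lymphoid UMIs the lower genes were 3. The cause of these changes was not tested. Without the plasma cell, also chosen after seeing the data, the counts were 110 and 5. With no Adamdec1 limit the share in GFP-low replicate 1 was 1.68%. Of the subset counts (cells with at least 2 UMIs of a list), cytotoxic fell to 31 from 53 cells, group 3 to 37 from 67 and regulatory T to 42 from 81 after thinning; group 2 fell to 9 from 19 after thinning, 11 at 3 UMIs and 11 without cells over 1% fibroblast UMIs, where group 3 was 36. Depth limits every statement on 5 cells of whole mesenchyme, where 3 UMIs correspond to 206 CPM.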

Other observations

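Clock transcripts in the lymphoid barcodes differed between the GFP-low libraries mainly in those with many fibroblast UMIs. The 31 lymphoid cells over 1% fibroblast UMIs held 33 of the 39 UMIs of Nr1d1 and 30 of the 33 UMIs of Dbp. Nr1d1, a repressor of the molecular clock, had 46.7 CPM in lymphoid cells of GFP-low replicate 1, against 60.8 CPM in other cells, and 183 CPM in lymphoid cells of GFP-low replicate 2, against 353 CPM in other cells. Dbp, a clock output factor, had 26.3 CPM in lymphoid cells, against 13.7 CPM in other cells, in replicate 1 and 200 CPM in lymphoid cells, against 408 CPM in other cells, in replicate 2. The list of 12 clock genes summed to 350 CPM in lymphoid cells, against 258 CPM in other cells, in replicate 1 and to 724 CPM in lymphoid cells, against 1346 CPM in other cells, in replicate 2. In the lymphoid cells at or under 1% fibroblast UMIs the 2 sums were 284 and 322 CPM, and in those over 1% they were 392 and 1153 CPM. The part of the fibroblast transcripts and of the time of dissection, which the labels do not give, was not tested.

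Transcripts of ribosomal protein genes made up 12.1, 18.2 and 14.1% of the UMIs of lymphoid cells in GFP-low replicate 1, GFP-low replicate 2 and whole mesenchyme, against 10.2, 15.2 and 9.83% in the other cells. In the lymphoid cells at or under 1% fibroblast UMIs they made up 14.1, 19.8 and 18.0%.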
